A study of Mus musculus with 20 samples.

Results

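Per1 overexpression was set against Gfp expression in C2C12 myotubes, the multinucleated fibers that form when a mouse myoblast line is moved to low serum with insulin. The comparison used 10 of the 20 libraries of the series and was chosen by label, as the 5 libraries of Per1-transduced myotubes (numbers 11, 12, 13, 14 and 15) and the 5 Gfp libraries of the same experiment (numbers 11, 13, 14, 15 and 16). Per1 myotubes received an adenovirus at 320000000 PFU per mL that carries mouse Per1 and Gfp behind separate CMV promoters. Gfp myotubes received an adenovirus at 80000000 PFU per mL with Gfp alone. All were transduced on day 4 of differentiation and harvested 48 h later, so that every myotube culture had been exposed to virus and to Gfp. The concentration of virus thus differed by a factor of 4, and an effect of Per1 and an effect of the amount of virus cannot be told apart. The CMV promoter is not restricted to muscle, so that unfused cells in the wells could carry the transgenes as well. All libraries came from 1 experimental replicate, and p-values therefore reflect spread among cultures of 1 experiment and nothing wider.

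PER1 is a repressor of the molecular clock that enters the nucleus with CRY proteins and holds back transcription by BMAL1 and CLOCK. Myotubes are made by exit of myoblasts from the cell cycle, fusion, and the switch from embryonic and widely expressed proteins to the contractile, calcium-handling and metabolic proteins of muscle. They also respond to misfolded protein through the factor HSF1, to oxidants through NRF2, to growth factors through immediate early genes, and to ligands of the TGF-β family, of which myostatin restrains muscle growth. In bulk RNA from such a culture, fewer cells of a type and less RNA per cell cannot be told apart.

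The values were regularized log2 read counts (rlog), on which a difference of 1 is a doubling and in which differences are shrunken, more strongly where reads are few. Of 55335 genes, 20559 had a mean rlog of 3 or more in these 10 libraries and entered the limma fit. In what follows, a gene rose or fell where its Benjamini-Hochberg adjusted p was at most 0.05, and it was called higher or lower where its log2 difference from Gfp was also at least 0.5 in size. On these terms 91 genes (0.443%) were called higher and 52 (0.253%) lower in Per1 myotubes. The adjusted p alone was passed by 4131 genes (20.1%) that rose and by 4232 (20.6%) that fell. The groups did not overlap for 29.7% of genes, with all Per1 libraries above all Gfp libraries for 14.8% and below them for 15%. The quartiles of all log2 differences were −0.051 and 0.052, and the median standard error was 0.024, so that many of the differences behind these shares were small. The split between rises and falls depended on the scaling, since setting the median of each library to the same value left 3080 genes (15%) higher and 5912 (28.8%) lower. The depth of each library is unknown, because rlog values hold no counts. The first principal component of the most variable genes, with 80.9% of their variance, separated the groups. That share does not hold for all genes tested. No pair of libraries held identical values.

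Of the 143 genes called, 47 were on lists of interferon-stimulated genes, chemokines or clock genes. The interferon list had 39 of 148 tested members called higher and 1 lower, with a median log2 difference of 0.30. The chemokine list had 2 called higher and 1 lower of 30 (median 0.04), and the clock list had 2 called higher, Per1 among them, and 2 lower of 27 (median 0.04). The other 96 genes, 48 higher and 48 lower, are the subject here. All but 1 of the 143 had groups without overlap, the exception being Gm45837 (log2 difference 0.58, standard error 0.20), a gene known only by a model number. It missed the limma adjusted p when Per1 library 11, 13 or 15 or Gfp library 11, 14 or 16 was left out (0.060 to 0.091).

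Per1 itself was first checked in every library. It stood at 19.63, 19.39, 19.59, 19.64 and 19.63 rlog units in Per1 myotubes, against 15.22, 15.27, 15.28, 15.27 and 15.30 in Gfp myotubes. The groups were apart by 4.09, and Per1 library 12 was the lowest of the Per1 libraries. The log2 difference was 4.31 (standard error 0.040, limma with Benjamini-Hochberg adjusted p = 1.01e-17), and viral and endogenous Per1 reads were not told apart. Of 11 tested genes within 100000 bases of Per1 on chromosome 11 (GRCm39), none was called with limma, and their log2 differences ran from −0.07 to 0.15.

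Hoxb2, a homeobox transcription factor of the hindbrain and anterior body axis, had the largest rise after Per1. Its rlog values were 9.64, 9.47, 9.53, 9.62 and 9.61 in Per1 myotubes and 7.13, 7.08, 7.09, 7.16 and 7.10 in Gfp myotubes. Every Per1 library was at least 2.32 above every Gfp library, and the log2 difference was 2.46 (standard error 0.036, limma with Benjamini-Hochberg adjusted p = 2.87e-15). Its neighbors in the same cluster moved little. Hoxb2 lies on chromosome 11 from 96241351 to 96244838 (GRCm39), 2595 bases from Hoxb3, which had a log2 difference of 0.09 (standard error 0.032), and 28887 bases from Hoxb4, at 0.13 (standard error 0.033). Both missed the limma adjusted p with the replicate block (0.0999 for Hoxb3 and 0.0512 for Hoxb4), and Hoxb3 also under other alternatives. Hoxb5 and Hoxb6 were at −0.01 and −0.02 and did not pass the adjusted p. Over the 24 other Hox genes tested, which specify position along the body axis, differences lay between −0.12 and 0.18. With Hoxb2, 6 of 25 rose (24%) and 2 fell (8%), against 5 and 5 after median centring. Hoxb2 was the one Hox gene called in limma under the main setting and under every alternative setting.

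Mstn, which encodes myostatin, had the next largest rise. It stood at 11.28, 11.02, 11.23, 11.22 and 11.18 rlog units in Per1 myotubes and at 9.64, 9.65, 9.73, 9.55 and 9.69 in Gfp myotubes, with a log2 difference of 1.54 (standard error 0.045, limma with Benjamini-Hochberg adjusted p = 1.05e-11). The groups were 1.29 apart. The one tested gene within 100000 bases of Mstn, 1700019D03Rik on the other strand, rose by 0.38 (standard error 0.044). Other genes of the TGF-β family and its signalling, inhibitors and receptors as well as ligands, mostly fell. Of 48 genes of myostatin, activin, TGF-β and BMP signalling tested, 30 fell (62.5%, against 20.6% of all genes tested) and 6 rose (12.5%, against 20.1%). Of them 1 was called higher (Mstn) and 3 lower, with a median log2 difference of −0.10.

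**Figure D1:**
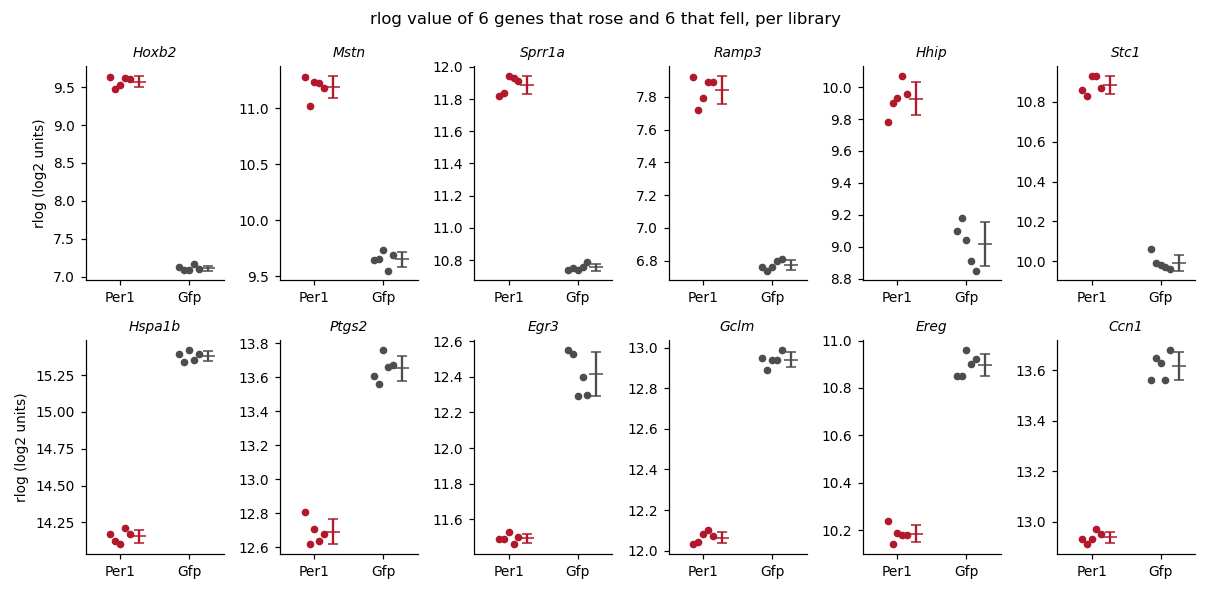
Each panel plots 1 gene, with its rlog value (log2 units) on the vertical axis and the Per1 libraries left of the Gfp libraries (5 points each, bar at the mean ± SD). In all 12 panels the points of the groups do not overlap, with the widest gap, 2.32, for Hoxb2, and Per1 below Gfp in the second row from Hspa1b to Ccn1.

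The 3 of these signalling genes called lower are all secreted or intracellular brakes or ligands of the BMP and TGF-β branches. Smad7, which encodes an inhibitory SMAD that is itself induced by TGF-β, had 10.72 to 11.02 rlog units in Per1 myotubes and 11.31 to 11.57 in Gfp myotubes (log2 difference −0.68, standard error 0.056). Grem1, which encodes the secreted BMP antagonist gremlin, had 13.35 to 13.62 in Per1 myotubes and 13.99 to 14.23 in Gfp myotubes (−0.63, standard error 0.051). Gdf5, a BMP family ligand of joint and bone, had 7.43 to 7.63 in Per1 myotubes and 8.07 to 8.17 in Gfp myotubes (−0.62, standard error 0.038). For each of them every Per1 library was below every Gfp library. Further falls below the size threshold took in Tgfbr1, a type I receptor of TGF-β (−0.29), the BMP antagonists Chrd (−0.29) and Nog (−0.23), Smad3, which carries the TGF-β and myostatin signal to the nucleus (−0.24), Id2 (−0.28) and Id1 (−0.17), targets of BMP signalling, and the myostatin receptor gene Acvr2b (−0.16). Fst, which encodes the myostatin antagonist follistatin, fell by 0.14 (standard error 0.029). Dcn, which encodes the matrix proteoglycan decorin, rose by 0.32.

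Genes that report TGF-β and YAP activity also fell. Of 23 tested, 17 fell (73.9%), 1 rose and 3 were called lower, with a median log2 difference of −0.19 against 0.0011 for all genes tested. Ccn1, a matricellular protein and a standard target of YAP, stood at 12.93, 12.91, 12.93, 12.97 and 12.95 in Per1 myotubes and 13.56, 13.65, 13.63, 13.56 and 13.68 in Gfp myotubes (log2 difference −0.68, standard error 0.023). Ccn2, its relative known as connective tissue growth factor, had 13.12 to 13.19 in Per1 myotubes and 13.69 to 13.82 in Gfp myotubes (−0.60, standard error 0.023). Tagln, an actin-binding protein of smooth muscle, had 13.14 to 13.25 in Per1 myotubes and 13.62 to 13.83 in Gfp myotubes (−0.57, standard error 0.035). The YAP-regulated kinase gene Lats2 fell by 0.36, Amotl2 by 0.27 and Ankrd1 by 0.23. Acta2, smooth muscle actin, was at −0.02 and did not pass the adjusted p, but after quantile normalization it was at 0.07 and passed. Another CCN protein went the other way, as Ccn3, which encodes a matricellular protein often set against CCN2, rose by 0.64 (standard error 0.031), with 14.91 to 14.98 in Per1 myotubes and 14.21 to 14.40 in Gfp myotubes.

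Because TEAD factors recruit YAP to short DNA sites, the promoter of Ccn1 is printed, as RefSeq gives it for GRCm38.p6, chr3:145649936-145650235, minus strand, 5′ to 3′ from 250 bases before to 50 after the start. The TEAD site GGAATG, searched on both strands, is in capitals, here read from the other strand at position −103.
Ccn1: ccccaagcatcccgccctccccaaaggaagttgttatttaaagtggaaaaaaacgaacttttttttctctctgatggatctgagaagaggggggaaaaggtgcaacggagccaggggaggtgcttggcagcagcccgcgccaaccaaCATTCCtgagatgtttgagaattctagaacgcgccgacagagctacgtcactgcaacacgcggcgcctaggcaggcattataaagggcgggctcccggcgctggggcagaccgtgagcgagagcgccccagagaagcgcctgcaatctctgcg
The site was found in 9 of the 16 members with a promoter listed (56.2%). It was found in 14.6% of the 27025 genes with one and in 12.6% of the tested genes among them. It overlapped with none of the other motifs searched in this promoter. A match marks letters and not a bound site. The shares here and below are over all tested members with a promoter, whether or not they fell. The lists were written from known roles, targets of these factors among them, so a higher share of a site is no result of these data.

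The chaperone genes of the heat shock response fell almost throughout. Of 37 tested, 32 fell (86.5%, against 20.6% of all genes tested), 2 rose, and 3 were called lower and none higher with limma (background 0.253% and 0.443%), with a median log2 difference of −0.20. Hspa1b, which encodes an inducible HSP70, had the largest fall of all genes tested, with 14.17, 14.12, 14.10, 14.21 and 14.17 rlog units in Per1 myotubes and 15.39, 15.34, 15.42, 15.35 and 15.39 in Gfp myotubes. The groups were 1.13 apart, and the log2 difference was −1.22 (standard error 0.022, limma with Benjamini-Hochberg adjusted p = 4.19e-14). Hspa1a, the neighboring HSP70 gene, had 12.50, 12.51, 12.43, 12.46 and 12.48 in Per1 myotubes and 13.15, 13.11, 13.15, 13.16 and 13.14 in Gfp myotubes (−0.67, standard error 0.018). The values of this pair are not independent, because 62.3% of the 50-base stretches of Hspa1b transcripts also occur in Hspa1a (GENCODE M39). Hsph1, an HSP110 that resets HSP70 by exchanging its nucleotide, had 15.06 to 15.17 in Per1 myotubes and 15.68 to 15.73 in Gfp myotubes (−0.58, standard error 0.021).

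The next members covered the other arms of the chaperone system. Dnajb1, the HSP40 partner of HSP70, fell by 0.37, the constitutive HSP70 gene Hspa8 by 0.31, and Hsp90aa1, the inducible HSP90, by 0.28, while the mitochondrial chaperonin pair Hspe1 and Hspd1 were at −0.26 and −0.25. Among small heat shock proteins of muscle, Hspb7 fell by 0.43 and Cryab, which protects desmin and titin, by 0.31, while Hspb6 rose by 0.14. Hspa1l, a testis-type HSP70 gene beside the inducible pair, rose by 0.21 (standard error 0.036). Hsf1, the factor that drives these genes, was at −0.07 and passed the adjusted p, and its relative Hsf2 was at 0.00 and did not. Averaged over the 37 genes, the Per1 libraries lay between 14.310 and 14.319 and the Gfp libraries between 14.507 and 14.530.

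The promoters of the 3 genes called lower are printed because HSF1 acts through short heat shock elements in promoters. They come from RefSeq, build GRCm38.p6, in the same window as above, for Hspa1b at chr17:34959189-34959488, for Hspa1a at chr17:34972107-34972406 and for Hsph1 at chr5:149636287-149636586, all on the minus strand. Capitals mark the facing pair of HSF1 motif arms, GAANNTTC, which reads the same on both strands.
Hspa1b: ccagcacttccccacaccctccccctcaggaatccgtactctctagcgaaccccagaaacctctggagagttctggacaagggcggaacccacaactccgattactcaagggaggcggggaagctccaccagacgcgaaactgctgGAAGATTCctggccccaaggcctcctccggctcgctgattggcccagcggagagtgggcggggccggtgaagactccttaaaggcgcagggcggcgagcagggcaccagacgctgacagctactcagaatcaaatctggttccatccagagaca
Hspa1a: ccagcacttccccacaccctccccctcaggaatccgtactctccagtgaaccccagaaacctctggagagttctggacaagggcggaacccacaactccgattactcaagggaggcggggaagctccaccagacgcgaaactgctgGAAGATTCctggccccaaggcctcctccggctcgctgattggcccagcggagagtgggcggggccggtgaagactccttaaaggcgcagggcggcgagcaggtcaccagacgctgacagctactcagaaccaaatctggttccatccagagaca
Hsph1: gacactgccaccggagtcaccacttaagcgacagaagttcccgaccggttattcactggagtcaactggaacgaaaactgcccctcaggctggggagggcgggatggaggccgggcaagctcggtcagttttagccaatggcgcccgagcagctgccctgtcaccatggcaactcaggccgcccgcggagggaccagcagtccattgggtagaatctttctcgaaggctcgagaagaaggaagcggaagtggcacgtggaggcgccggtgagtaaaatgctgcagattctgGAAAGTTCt
The pair was at position −104 in both HSP70 promoters, which differ at 4 of 300 positions, and at position 42 in the first of the 2 promoters listed for Hsph1. It was found in 11 of 31 members with a promoter (35.5%), in 7.95% of all promoters and in 5.73% of those of tested genes. It overlapped with none of the other motifs searched. The list was drawn up as HSF1 targets, so the higher share is no result of these data.

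NRF2 targets and glutathione genes were lower in part. Of 52 tested, 26 fell (50%, against 20.6% of all genes tested) and 9 rose (17.3%, against 20.1%). With limma 3 were called lower and none higher, with a median log2 difference of −0.07. Gclm, the modifier subunit of the enzyme that makes γ-glutamylcysteine for glutathione, stood at 12.03, 12.04, 12.08, 12.10 and 12.07 in Per1 myotubes and 12.95, 12.89, 12.94, 12.94 and 12.99 in Gfp myotubes. The groups were 0.79 apart (log2 difference −0.88, standard error 0.021, limma with Benjamini-Hochberg adjusted p = 1.59e-12). Its catalytic partner Gclc fell by 0.34. Abcc4, an ABC transporter that carries cyclic AMP and prostaglandin out of the cell, had 10.93 to 11.08 in Per1 myotubes and 11.68 to 11.78 in Gfp myotubes (−0.75, standard error 0.028). Srxn1, sulfiredoxin, which repairs overoxidized peroxiredoxins, had 13.31 to 13.36 in Per1 myotubes and 13.81 to 13.91 in Gfp myotubes (−0.52, standard error 0.020), and it missed the size threshold after quantile normalization (−0.498).

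Other classical targets followed at smaller sizes. Nqo1, a quinone reductase, and Txnrd1, thioredoxin reductase, fell by 0.41 each, Blvrb, biliverdin reductase, by 0.39, Gsr, glutathione reductase, by 0.30, and Hmox1, heme oxygenase, by 0.21. Nfe2l2, which encodes NRF2, was at −0.04 and its inhibitor Keap1 at −0.02, and neither passed the adjusted p, although Nfe2l2 passed it at −0.06 after median centring. The list did not move as 1 block. Slc7a11, the cystine transporter, was at −0.01 and did not pass, G6pdx, which makes NADPH, rose by 0.20, and the glutathione transferase Gstm2 by 0.30. Metallothioneins, which bind zinc and copper, were also lower, with Mt1 at −0.20 and Mt2 at −0.17. Of 15 genes of metal handling 6 fell (40%) and 2 rose (13.3%).

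For the pair called lower that is most tied to NRF2, the promoters are printed with the core of the antioxidant response element, TGACNNNGC, in capitals on either strand (RefSeq, GRCm38.p6, plus strand, Gclm at chr3:122245307-122245606 and Srxn1 at chr2:152105274-152105573).
Gclm: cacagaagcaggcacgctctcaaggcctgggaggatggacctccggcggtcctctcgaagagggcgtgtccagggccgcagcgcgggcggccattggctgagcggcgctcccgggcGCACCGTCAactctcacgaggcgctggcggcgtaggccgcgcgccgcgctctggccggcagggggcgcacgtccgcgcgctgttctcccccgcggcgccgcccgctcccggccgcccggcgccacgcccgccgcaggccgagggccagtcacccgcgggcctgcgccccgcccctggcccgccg
Srxn1: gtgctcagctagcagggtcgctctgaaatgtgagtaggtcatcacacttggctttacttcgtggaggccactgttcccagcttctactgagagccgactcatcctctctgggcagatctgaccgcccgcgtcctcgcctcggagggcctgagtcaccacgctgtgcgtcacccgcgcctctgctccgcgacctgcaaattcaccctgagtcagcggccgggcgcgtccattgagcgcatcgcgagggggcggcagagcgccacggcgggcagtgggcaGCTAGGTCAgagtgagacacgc
These letters were at position −134 in Gclm and 29 in Srxn1, overlapping with none of the other motifs searched. Other forms of the element were not searched, and a stretch in lower case may hold one. The core was found in 12 of 47 members with a promoter (25.5%), in 12.5% of all promoters and in 14.4% of those of tested genes.

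**Figure D2:**
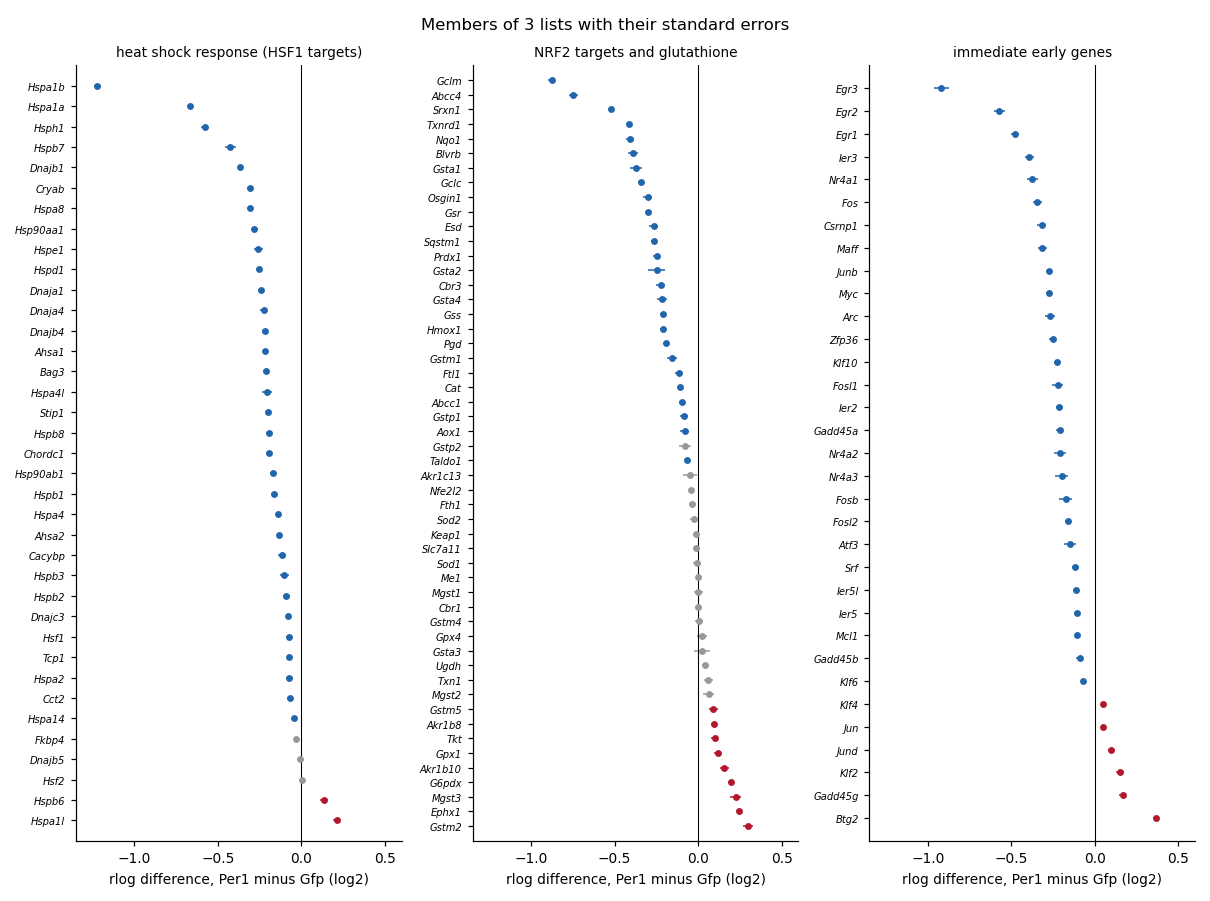
The rlog difference of Per1 minus Gfp (log2, horizontal axis) is plotted for every tested member of the heat shock, NRF2 and immediate early lists, with its standard error. Blue points fell, red points rose and grey points did not pass an adjusted p of 0.05, and most points lie left of 0, with Hspa1b at −1.22, Gclm at −0.88 and Egr3 at −0.92 as the lowest of the lists.

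Immediate early genes, which are switched on within minutes of a growth signal, were lower 48 h after transduction. Of 33 tested, 27 fell (81.8%) and 6 rose, 2 were called lower and none higher with limma, and the median log2 difference was −0.21. Egr3, a zinc finger factor of this class, had 11.49, 11.49, 11.53, 11.46 and 11.50 in Per1 myotubes and 12.55, 12.53, 12.29, 12.40 and 12.30 in Gfp myotubes. The Gfp libraries were spread more widely (SD 0.125) than the Per1 libraries (SD 0.023), and the groups were 0.76 apart (log2 difference −0.92, standard error 0.045, limma with Benjamini-Hochberg adjusted p = 2.02e-09). Egr2 had 9.31 to 9.36 in Per1 myotubes and 9.82 to 10.03 in Gfp myotubes (−0.57, standard error 0.034), and Egr1 had 12.75 to 12.84 in Per1 myotubes and 13.24 to 13.36 in Gfp myotubes (−0.48, standard error 0.024). Nr4a1, an orphan nuclear receptor, fell by 0.38, Fos by 0.34, Junb by 0.28, Myc by 0.28 and Srf, the serum response factor that drives many of them, by 0.12. Jun and Jund rose by 0.05 and 0.10, and Btg2, an antiproliferative gene that p53 also induces, rose by 0.36. The CArG box that SRF binds was found in 2 of 26 members with a promoter (7.69%), in 1.57% of all promoters and in 1.39% of those of tested genes.

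The ligands and brakes of the same pathway were mixed. Dusp5, a nuclear phosphatase of ERK, stood at 10.58 to 10.66 in Per1 myotubes and 11.16 to 11.29 in Gfp myotubes (log2 difference −0.60, standard error 0.027). Dusp4 fell by 0.27, Spry1 by 0.28 and Spry4 by 0.17, while Dusp6, the cytosolic ERK phosphatase, rose by 0.14. Of 21 feedback genes 9 fell (42.9%) and 5 rose (23.8%), against 20.6% and 20.1% of all genes tested. Ereg, epiregulin, had 10.24, 10.14, 10.19, 10.18 and 10.18 in Per1 myotubes and 10.85, 10.85, 10.96, 10.90 and 10.92 in Gfp myotubes (−0.71, standard error 0.028). Other ligands of the EGF receptor fell with it, with Hbegf at −0.48, Areg at −0.44, Tgfa at −0.28, Btc at −0.14 and Epgn at −0.11, and Egfr itself at −0.16. Egf, the founding ligand, was at 0.13 and did not pass the adjusted p. Over all 46 growth factor and receptor genes 19 fell (41.3%) and 8 rose (17.4%), and Ccn3 was called higher and Ereg lower (median −0.06). Among the rises were Pdgfd (0.32), Ptn, pleiotrophin (0.28), and Vegfd (0.24).

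Prostaglandin and leukotriene genes moved in both directions. Ptgs2, which encodes the inducible cyclooxygenase COX-2, stood at 12.81, 12.62, 12.71, 12.64 and 12.68 in Per1 myotubes and 13.61, 13.56, 13.76, 13.66 and 13.67 in Gfp myotubes (log2 difference −0.96, standard error 0.039, limma with Benjamini-Hochberg adjusted p = 2.14e-10). Ptgs1, the constitutive cyclooxygenase, rose by 0.28. Of the leukotriene arm, Alox5ap, the partner protein of 5-lipoxygenase, had 11.44 to 11.59 in Per1 myotubes and 10.71 to 10.91 in Gfp myotubes (0.75, standard error 0.036), Alox5 rose by 0.23 and Lta4h, which makes leukotriene B4, by 0.22. Nfkbiz, an inducible cofactor of NF-κB, had 11.45 to 11.49 in Per1 myotubes and 11.99 to 12.06 in Gfp myotubes (−0.55, standard error 0.019), the NF-κB subunits Relb, Rel, Nfkb2 and Nfkb1 fell by 0.14 to 0.20, and Nos2, the inducible nitric oxide synthase, rose by 0.48. Of 39 genes in this list 13 fell (33.3%) and 11 rose (28.2%), against 20.6% and 20.1% of all genes tested. Of the 39, 1 was called higher and 2 lower (median −0.03).

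Among 54 cytokines and receptors other than chemokines, 20 fell (37%, against 20.6% of all genes tested) and 9 rose (16.7%, against 20.1%). The median was −0.03, and 1 gene was called lower. That gene was Il12a, a subunit of IL-12 (log2 difference −0.50, standard error 0.025), which missed the size threshold when Per1 library 13 or 15 or Gfp library 15 or 16 was left out (−0.488 to −0.4996). Members of the IL-6 family and their receptors, which signal through gp130, fell below the size threshold, with Il6 at −0.25, Lif at −0.23, Clcf1 at −0.22 and Osmr at −0.27. Among the rises were Tnfrsf9 (0.32), Tslp (0.29), Il18 (0.26), Il33 (0.19) and Il34 (0.19). Tnf was at 0.00 and did not pass the adjusted p.

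Genes of the contractile apparatus were lower by small amounts. Over the lists of myosin chains, of thin filament and Z-disc, of excitation-contraction coupling and of the synapse, 83 of 135 genes tested fell (61.5%), 14 rose (10.4%) and 1 was called lower, with a median log2 difference of −0.14. Tcap, the titin cap of the Z-disc, had 11.04 to 11.36 in Per1 myotubes and 11.55 to 11.74 in Gfp myotubes (−0.49, standard error 0.050). Casq1, the calcium buffer of the fast sarcoplasmic reticulum, had 11.90 to 12.11 in Per1 myotubes and 12.46 to 12.56 in Gfp myotubes (−0.48, standard error 0.034). Myh4, the fast IIb myosin, had 15.60 to 15.81 in Per1 myotubes and 15.98 to 16.16 in Gfp myotubes (−0.37, standard error 0.044). For these 3 genes the groups did not overlap.

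Within myosins, 14 of 24 fell, and they included the fast chains Myh1 and Myh2 (−0.29 each), the slow chain Myh7 (−0.19), the embryonic Myh3 (−0.18) and the neonatal Myh8 (−0.10). The non-muscle chains went the other way or did not pass, with Myl6 at 0.21, Myh10 at 0.10 and Myh9 at 0.01, the last not past the adjusted p. Of 47 thin filament, titin-associated and Z-disc genes, 30 fell and 4 rose. Neb, which encodes the giant thin filament protein nebulin, fell by 0.31, and troponins of fast and of slow fibers both fell, with Tnnt3 at −0.20 and Tnnt1 at −0.21. Nebl, the nebulin relative of the heart and of non-muscle cells, rose by 0.48 and Pdlim3 by 0.22.

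Of 41 genes of excitation-contraction coupling, 24 fell, 6 rose and 1 was called lower. The voltage sensor Cacna1s fell by 0.30, the release channel Ryr1 by 0.27 and the calcium pump Atp2a1 by 0.25, whereas the small pump inhibitors Sln, sarcolipin, and Pln, phospholamban, rose by 0.42 and 0.20. Of 24 genes of the acetylcholine receptor and synapse 15 fell and 2 rose, with the fetal subunit Chrng at −0.21, the adult subunit Chrne at −0.17, the kinase gene Musk at −0.28 and Agrn, which encodes the nerve signal agrin, at 0.38.

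Among 35 myogenic factors and fusion genes 15 fell (42.9%), 9 rose (25.7%) and 2 were called higher. Myf5, a determination factor of myoblasts, stood at 13.35, 13.41, 13.37, 13.34 and 13.34 in Per1 myotubes and 12.82, 12.81, 12.86, 12.87 and 12.82 in Gfp myotubes (log2 difference 0.53, standard error 0.019, limma with Benjamini-Hochberg adjusted p = 9.44e-11). Vgll2, a cofactor of TEAD in muscle, had 13.34 to 13.41 in Per1 myotubes and 12.77 to 12.89 in Gfp myotubes (0.53, standard error 0.023). Msc, which encodes musculin, a repressor of MYOD, had 11.45 to 11.53 in Per1 myotubes and 11.00 to 11.16 in Gfp myotubes (0.40, standard error 0.029). Other members fell. Mef2c had 14.21 to 14.37 in Per1 myotubes and 14.59 to 14.76 in Gfp myotubes (−0.39, standard error 0.033), Mef2d was at −0.23, the fusion genes Mymx and Mymk were at −0.28 and −0.18, and Myog and Myod1 were at −0.12 and −0.10, all past the adjusted p. Pax7, of satellite cells, rose by 0.09 and Myf6 by 0.18. The MEF2 site was found in 5 of 36 promoters of the thin filament and Z-disc list (13.9%). It was found in 3.26% of all promoters and in 1.94% of those of tested genes.

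**Figure D3:**
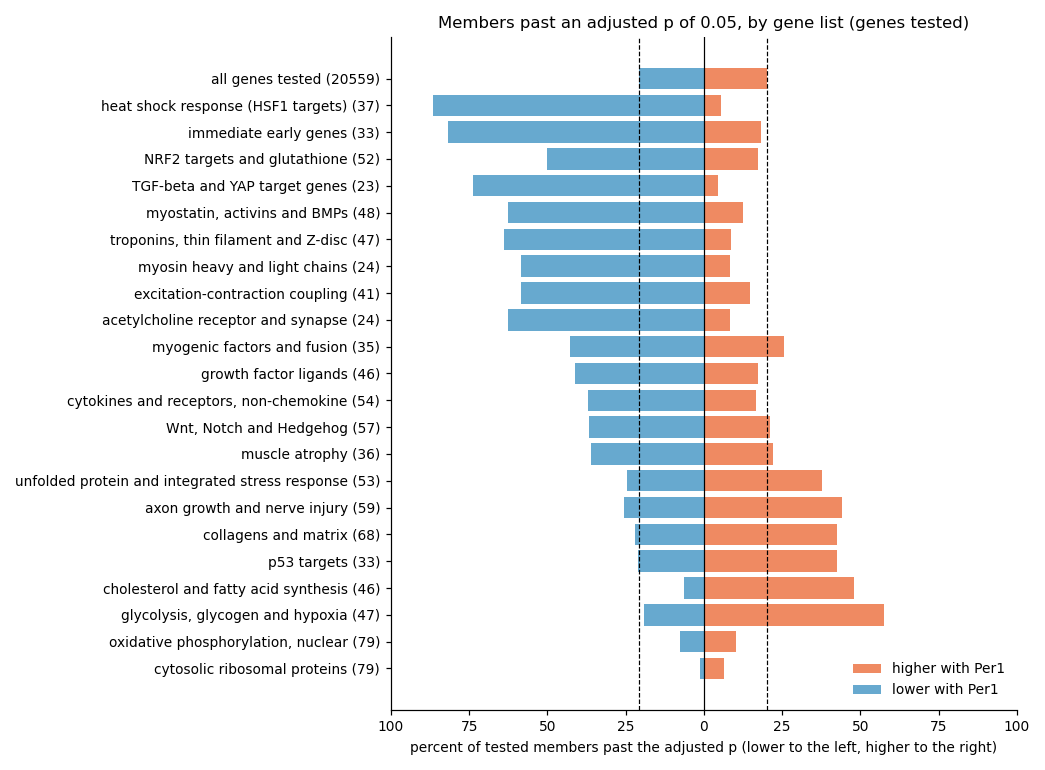
Bars give the percent of each list's tested members that fell (left) and that rose (right) in Per1 myotubes at an adjusted p of 0.05, with the number tested in parentheses and dashed lines at the 20.6% and 20.1% of all genes tested. Heat shock genes reach 86.5% on the left, cholesterol and glycolysis genes 47.8% and 57.4% on the right, and ribosomal and nuclear oxidative phosphorylation genes stay inside both lines.

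Glycolysis and hypoxia genes rose more often than they fell, 27 (57.4%) against 9 of 47 (median 0.09). Among the rises were Bnip3 (0.29), a mitophagy receptor induced by HIF-1, Pdk1 (0.21), which holds pyruvate back from mitochondria, Ldha (0.15) and Hif1a (0.15). The 9 falls included the muscle forms of glycolytic enzymes. This was followed over 20 pairs of a muscle form and a more widely expressed form of the same protein, drawn up after some of these values had been seen and therefore given without a test. Of 19 muscle forms 14 fell, 5 did not pass the adjusted p and none rose in limma. Of 20 wider forms 11 rose, 2 fell and 7 did not pass. Within a library, the muscle form was lower relative to its partner in 16 of the pairs, 13 of them without overlap between the groups, and the median of the 20 differences was −0.23. Pfkm enters 2 of these 13 pairs, which are thus not separate. Of all genes tested, taken singly, 29.7% had groups without overlap, and no such share was computed for ratios of 2 genes.

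In glycolysis, Eno3, the muscle enolase, had 17.10 to 17.23 in Per1 myotubes and 17.28 to 17.35 in Gfp myotubes (log2 difference −0.17), whereas Eno1 rose by 0.08. Pfkm, the muscle phosphofructokinase, fell by 0.16, and its relatives Pfkl and Pfkp rose by 0.21 and 0.22, Pfkp with 15.11 to 15.20 in Per1 myotubes and 14.88 to 15.01 in Gfp myotubes. Pgam2 fell by 0.09 and Pgam1 rose by 0.20, Pygm fell by 0.17 and Pygb rose by 0.08, and Hk2 fell by 0.10 and Hk1 rose by 0.18. The same held for 2 subunits of cytochrome c oxidase, with Cox6a2 at −0.18 and Cox6a1 at 0.13, and Cox8b at −0.25 and Cox8a at 0.11. Cox7a1 fell by 0.15, and Cox7a2 was at 0.01 and did not pass the adjusted p. In the cytoskeleton Myl1 fell by 0.18 and Myl6 rose by 0.21, and Acta1, skeletal muscle actin, fell by 0.14 and Actb rose by 0.06. Other pairs did not follow. Ckm and Ckb, the muscle and brain creatine kinases, were at −0.04 and 0.00 and neither passed the adjusted p, and Slc25a4 moved up relative to Slc25a5 (difference of the ratio 0.075, no overlap), although neither gene passed on its own.

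**Figure D4:**
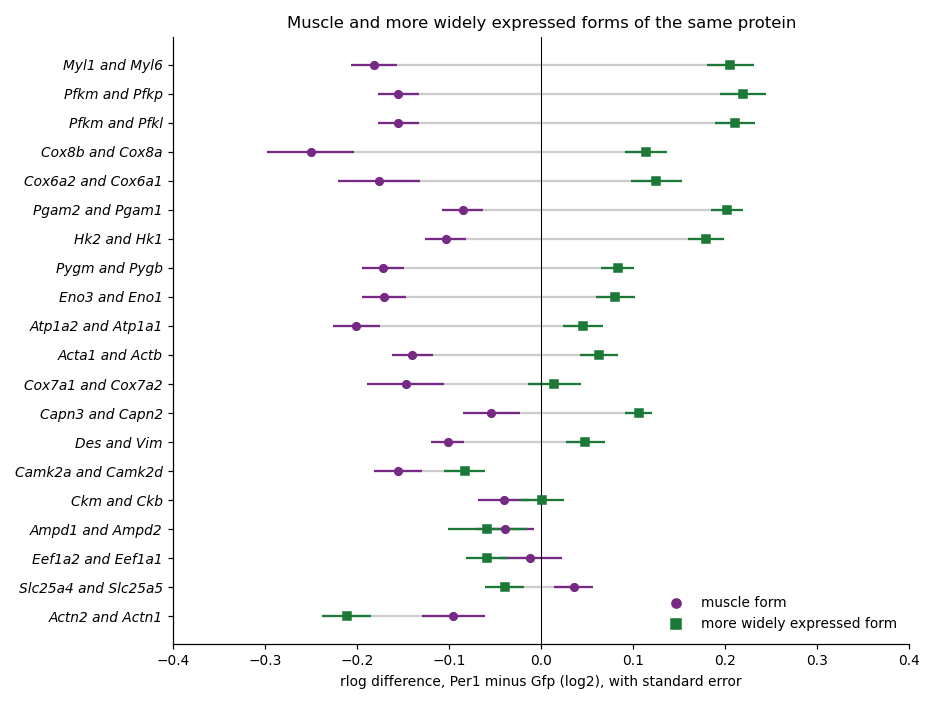
For each of the 20 pairs, the rlog difference of Per1 minus Gfp (log2, horizontal axis, with standard error) is plotted for the muscle form (circle) and for the more widely expressed form (square), sorted by the difference between them. The circle lies left of the square in 16 pairs, farthest for Myl1 and Myl6 (−0.18 and 0.21), and right of it in 4.

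The energy and protein production genes otherwise moved little. Of 79 nuclear genes of oxidative phosphorylation, 8 rose (10.1%) and 6 fell (7.59%), with a median of 0.02, whereas after median centring 4 rose and 12 fell. Of 13 mitochondrial genes 3 fell and none rose in limma. Of 79 cytosolic ribosomal protein genes 5 rose and 1 fell (median 0.02), and after median centring 3 rose and 3 fell. Fatty acid oxidation and PGC-1 genes had 8 rises and 9 falls in 44, with the lipoprotein lipase gene Lpl at 0.31 and the uncoupling protein gene Ucp2 at −0.30. Replication-dependent histone genes had 2 rises and no fall in 31 with limma.

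Sterol and fatty acid synthesis genes rose in 22 of 46 cases (47.8%) and fell in 3, with a median of 0.05. Osbp2, an oxysterol-binding protein, was the one called higher, with 12.14 to 12.26 in Per1 myotubes and 11.53 to 11.64 in Gfp myotubes (log2 difference 0.61, standard error 0.027). The other rises were smaller, with the mevalonate enzyme Pmvk at 0.30 and squalene synthase (Fdft1) at 0.25. Ebp, a sterol isomerase, fell by 0.38. After median centring 19 rose and 6 fell.

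Axon growth and nerve injury genes held some of the largest rises, although the list as a whole had a median of 0.03, with 26 of 59 genes higher (44.1%) and 15 lower. Sprr1a, a small proline-rich protein of the skin barrier that injured neurons also make, stood at 11.82, 11.84, 11.94, 11.93 and 11.91 in Per1 myotubes and 10.74, 10.75, 10.74, 10.76 and 10.79 in Gfp myotubes (log2 difference 1.13, standard error 0.025, limma with Benjamini-Hochberg adjusted p = 6.85e-13). Ramp3, which turns the calcitonin receptor-like receptor into an adrenomedullin receptor, had 7.92, 7.72, 7.79, 7.89 and 7.89 in Per1 myotubes and 6.76, 6.74, 6.76, 6.80 and 6.81 in Gfp myotubes (1.07, standard error 0.039). Its partners rose below the size threshold, Ramp2 by 0.39 and the receptor gene Calcrl by 0.32, and the ligand gene Adm was at 0.09 and did not pass the adjusted p. Gap43, a growth cone protein, had 12.83 to 12.96 in Per1 myotubes and 12.07 to 12.27 in Gfp myotubes (0.71, standard error 0.036). Tubb3, the neuronal β-tubulin, had 15.10 to 15.21 in Per1 myotubes and 14.50 to 14.58 in Gfp myotubes (0.63, standard error 0.023), and the tubulin gene Tuba1a rose by 0.40 and the neurofilament gene Nefl by 0.44. Of the neurotrophic factors, Gdnf, which supports motor neurons, fell by 0.44, and Bdnf was at −0.05 and did not pass the adjusted p.

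Keratins and epithelial genes had 3 members called higher of 33 tested, against 0.443% of all genes tested. Of the 33, 9 rose (27.3%, against 20.1%) and 11 fell (33.3%, against 20.6%), with a median of −0.04. Krt13, a keratin of stratified lining epithelia, stood at 11.14, 11.14, 11.16, 11.14 and 11.23 in Per1 myotubes and 10.28, 10.23, 10.30, 10.32 and 10.27 in Gfp myotubes (log2 difference 0.88, standard error 0.025). Krt19, a keratin of simple epithelia that lies 19244 bases away on chromosome 11, had 10.88 to 11.09 in Per1 myotubes and 10.20 to 10.39 in Gfp myotubes (0.69, standard error 0.042). Krt14, 81596 bases from Krt13 in the same cluster, fell by 0.32. Cldn1, a tight junction protein, had 10.15 to 10.36 in Per1 myotubes and 9.61 to 9.70 in Gfp myotubes (0.60, standard error 0.036), while Cdh1, E-cadherin, fell by 0.23.

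The remaining genes called higher came from several classes. Hhip, a decoy that binds Hedgehog ligands, had 9.78, 9.90, 9.93, 10.07 and 9.96 in Per1 myotubes and 9.10, 9.18, 9.04, 8.91 and 8.85 in Gfp myotubes (log2 difference 0.91, standard error 0.061), and the Wnt antagonist gene Dkk2 rose by 0.52. These were the 2 of 57 Wnt, Notch and Hedgehog genes called. Of that list 21 fell (36.8%) and 12 rose (21.1%), against 20.6% and 20.1% of all genes tested. Among the falls were Gli1 (−0.19) and Ptch1 (−0.18) of Hedgehog signalling and Axin2 (−0.25) of Wnt signalling. Stc1, the secreted glycoprotein stanniocalcin, had 10.86, 10.83, 10.93, 10.93 and 10.87 in Per1 myotubes and 10.06, 9.99, 9.98, 9.97 and 9.96 in Gfp myotubes (0.89, standard error 0.028). Colec10, a collectin of the lectin pathway of complement, had 13.37 to 13.50 in Per1 myotubes and 12.52 to 12.63 in Gfp myotubes (0.87, standard error 0.026). Itga4, the α4 integrin that binds VCAM-1 and fibronectin, had 13.87 to 14.06 in Per1 myotubes and 13.24 to 13.34 in Gfp myotubes (0.70, standard error 0.031).

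On a list of enzymes that make or clear amines and nucleosides, 14 of 42 rose (33.3%, against 20.1% of all genes tested). Another 7 fell (16.7%, against 20.6%), and 2 were called higher, Hdc and Cda. Hdc, which makes histamine, had 10.11, 10.21, 10.11, 10.33 and 10.29 in Per1 myotubes and 9.49, 9.38, 9.39, 9.35 and 9.44 in Gfp myotubes (log2 difference 0.80, standard error 0.044), and Cda, cytidine deaminase, rose by 0.56. Dbh, which makes noradrenaline and is not on that list, was also called higher, at 0.55, as was Adra1b, an adrenergic receptor (0.55), and Ddc, which makes dopamine and serotonin, rose by 0.32. Odc1, the first enzyme of polyamine synthesis, fell by 0.22. The regulators of G protein signalling Rgs8 and Rgs4 rose by 0.62 and 0.56, and the Ras-like GTPase gene Diras2 by 0.59. Further genes called higher were the serpin gene Serpinb6d (0.72), Pm20d1 (0.62), which makes N-acyl amino acids, the axonemal dynein gene Dnai1 (0.59), Lrrc17 (0.58), the κ-casein gene Csn3 (0.58), Mab21l3 (0.58), Samd12 (0.58), the ectonucleotidase gene Enpp3 (0.58), the metalloprotease gene Adam8 (0.56), the xylulose reductase gene Dcxr (0.56), the ephrin gene Efna3 (0.53), the retinol dehydrogenase gene Dhrs9 (0.53), Art3 (0.53), Ccdc73 (0.50) and Pax5 (0.50), a B cell transcription factor. Of those nearest the threshold, Ccdc73, Dkk2 and Pax5 were below it without Per1 library 14 (0.496, 0.487 and 0.498).

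The remaining genes called lower were as varied. Efr3b, which anchors a phosphatidylinositol kinase at the plasma membrane, had 8.01, 7.90, 7.97, 8.01 and 7.99 in Per1 myotubes and 8.95, 8.83, 9.03, 9.04 and 8.97 in Gfp myotubes (log2 difference −0.99, standard error 0.040). Gja5, the gap junction protein connexin 40, had 10.72 to 10.92 in Per1 myotubes and 11.52 to 11.82 in Gfp myotubes (−0.85, standard error 0.050). Cacna2d2, an auxiliary subunit of calcium channels, had 9.72 to 10.11 in Per1 myotubes and 10.62 to 11.02 in Gfp myotubes (−0.85, standard error 0.078), and its relative Cachd1 was at −0.52. Procr, the receptor of activated protein C, had 8.84 to 8.88 in Per1 myotubes and 9.63 to 9.68 in Gfp myotubes (−0.80, standard error 0.024). In each of these 4 genes every Per1 library was below every Gfp library.

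Others called lower were Jakmip1 (−0.69), the protease inhibitor gene Slpi (−0.64), Hsd17b13 (−0.63), of lipid droplets, Tent5c (−0.62), a poly(A) polymerase, the cadherin gene Cdh6 (−0.62), Syt12 (−0.61), Asb14 (−0.59), the collagen gene Col25a1 (−0.59), Mxd1 (−0.58), whose product opposes MYC, Tox2 (−0.53), Ntn5 (−0.51), the skin protease gene Asprv1 (−0.50), Crim1 (−0.50), whose product binds BMPs, Mgp (−0.50), an inhibitor of calcification, and the vesicular glutamate transporter gene Slc17a7 (−0.50). Those nearest the threshold, Asprv1, Ntn5, Crim1, Mgp, Slc17a7 and also Cachd1, missed it without at least 1 library, by most in Cachd1 without Per1 library 12 (−0.44). Peptide hormone genes among them were Tac4 (−0.57), a tachykinin, and Cck (−0.53), cholecystokinin. The other 10 of the 96 genes carry only a model number or an identifier, 6 of them higher and 4 lower.

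Lists that bear on muscle mass showed no gene called beyond those above with limma. Of 36 atrophy genes other than Mstn, 13 fell (36.1%) and 8 rose (22.2%), against 20.6% and 20.1% of all genes tested (median −0.04). Among them were the ligase genes Fbxo40 (−0.38) and Trim54 (−0.29) and Ddit4, an inhibitor of mTORC1 (0.32). Of 58 autophagy and lysosome genes 18 fell (31%) and 11 rose (19%), with Sqstm1, the cargo receptor p62, at −0.26. Of 36 constitutive proteasome genes 11 fell (30.6%) and 2 rose (5.56%), and the lowest, Psmd11, was at −0.14. After median centring 19 atrophy genes fell and 7 rose, and 27 autophagy and lysosome genes fell and 7 rose. With the same centring 19 proteasome genes fell and none rose, while 28.8% of all genes tested fell. Unfolded protein and integrated stress response genes rose in 20 of 53 cases (37.7%) and fell in 13 (24.5%), but after median centring the counts were 15 and 16. Of 31 genes of the IGF axis and imprinted growth genes 14 rose (45.2%) and 9 fell (29%). Igfbp2 was at 0.35, Plagl1 at 0.33 and the insulin receptor substrate Irs2 at −0.31. Of 17 glucocorticoid-responsive genes 11 fell (64.7%) and 2 rose (11.8%), with Sgk1 at −0.21, Fkbp5 at −0.17 and Tsc22d3, which encodes GILZ, at 0.18.

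Of 33 p53 targets 14 rose (42.4%) and 7 fell (21.2%), against 20.1% and 20.6% of all genes tested. Called higher were 2, Dcxr and Tap1, of which Tap1 is also on the interferon list. Ccng1 rose by 0.31 and Bax by 0.23, while Cdkn1a, which encodes p21, was at −0.02 and did not pass the adjusted p (0.07 and past it after quantile normalization), and Mdm2 fell by 0.11. Of 51 cell cycle genes 12 rose (23.5%) and 14 fell (27.5%), close to the 20.1% and 20.6% of all genes tested. Among them were the cyclin genes Ccne1 and Ccnd1 at 0.31 and 0.29 and the replication genes Cdc6 and Pcna at −0.24 and −0.15. Collagen and matrix genes rose in 29 of 68 cases (42.6%) and fell in 15, with Thbs2 at 0.47, Col4a5 at 0.40 and Col3a1 at 0.26 among the rises and the protease inhibitor genes Timp1 and Timp3 at −0.32 and −0.29. Of 63 genes of ABC transporters and cyclic nucleotide signalling 18 fell (28.6%) and 14 rose (22.2%), against 20.6% and 20.1% of all genes tested, and 1, Abcc4, was called. Of 15 abundant noncoding RNAs 7 fell and none rose in limma, among them Neat1 (−0.29) and Malat1 (−0.20), both nuclear.

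**Figure D5:**
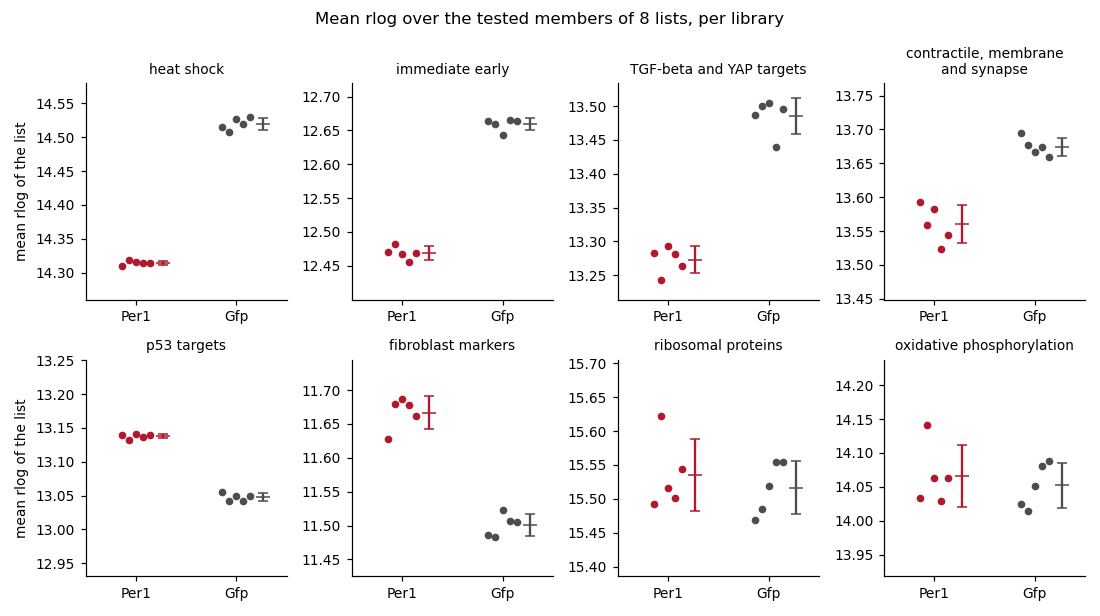
Each panel plots the mean rlog over the tested members of 1 list in each library, Per1 left of Gfp (5 points each, bar at the mean ± SD), on vertical axes of equal span. The groups are apart for heat shock genes (14.310 to 14.319 with Per1, 14.507 to 14.530 with Gfp) and for fibroblast markers (11.627 to 11.687 with Per1, 11.483 to 11.522 with Gfp), and they overlap for ribosomal protein genes.

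Markers of cell types were examined because a culture can hold unfused cells. Of 18 markers of differentiated myotubes all were detected, 15 fell (83.3%) and none rose in limma, with a mean of 16.711 to 16.796 rlog units in Per1 myotubes and 16.931 to 16.960 in Gfp myotubes, so the cells were myotubes by these markers in both groups. Of 10 fibroblast and fibro-adipogenic markers tested 7 rose and 1 fell, among them Ly6a (0.38), Cd34 (0.33) and Dcn (0.32), with Pdgfra, the defining receptor, at −0.12 and not past the adjusted p, and the adipocyte markers Adipoq and Plin1 below the filter. Of 12 markers of proliferating myoblasts 3 rose and 1 fell, Myf5 being the one called and Mki67 (−0.10) the one that fell, although it missed the adjusted p under most alternatives, with a mean of 13.374 to 13.502 in Per1 myotubes and 13.281 to 13.404 in Gfp myotubes. Of 14 neuron and Schwann cell markers 9 were tested and 4 rose, Tubb3 and Map2 (0.36) among them, while Rbfox3, Snap25, Syt1 and Sox10 were below the filter in both groups.

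Leukocyte markers were mostly too low to test. Of 20, 11 were below the filter, Ptprc (CD45) among them at 2.69 in Per1 myotubes and 2.67 in Gfp myotubes, and Adgre1, C1qb and Tyrobp were negative in both groups. The 9 tested had a mean of 6.613 to 6.678 in Per1 myotubes and 6.607 to 6.621 in Gfp myotubes, with Mrc1 at 0.33 as the largest rise. Of 9 endothelial markers tested 5 rose and 1 fell, with a mean of 6.220 to 6.271 in Per1 myotubes and 6.156 to 6.204 in Gfp myotubes, and 3 others, Erg, Tie1 and Emcn, were below the filter. Osteogenic markers had 3 falls and no rise among 7 in limma, with a mean of 9.213 to 9.269 in Per1 myotubes and 9.326 to 9.374 in Gfp myotubes. The falls of contractile genes and the rises of fibroblast markers went together across the groups, and the part of cell composition in either was not tested.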

How the data were processed

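RNA from C2C12 myotubes was measured by poly(A) RNA sequencing, 1 library per culture. The authors mapped with STAR, made gene counts, and deposited log2 values regularized with DESeq2 (rlog), so counts and depth are not used here. Per the labels the genome was mm10, whereas the study's methods name GRCm39. Tool versions and the strand setting of the counting are not given in the sources used here, so a gene and its antisense partner may not be separated.

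Values of 20559 genes (mean rlog at least 3) were compared with limma 3.58.1 (lmFit, eBayes with trend, R 4.3.3), two-sided, with Benjamini-Hochberg adjustment over all of them. The call needed an adjusted p no higher than 0.05 with a change of 0.5 or more, up or down. The 10 libraries of the Per2 experiment were left out. On simulated data with independent noise of each gene's own SD, 100 of 100 genes changed by 0.6 were recovered. None of the unchanged genes was called, and 13 of them passed the adjusted p alone. The shift was large beside that noise, so recovery was near certain and only the fit itself was checked.

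The members and lists were chosen with earlier results of these data known. Named were Per1, the 15 largest rises and 15 largest falls among called genes whose groups did not overlap, leaving out model numbers and interferon, chemokine and clock genes. Of each other list up to 6 called members were named, or where none was called up to 4 past the adjusted p, and further called genes by role. Other members, and the paired muscle and wider forms, were named for their role after their values were seen. Alternatives were no filter, a mean rlog of at least 5, quantile normalization, median centring, array weights, a fit with no trend, leave-one-out and a replicate block. Promoters are from RefSeq (GRCm38.p6), neighbors from GENCODE M39 (GRCm39). Some genes that this rule would name are not reported here.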

Additional observations from a re-analysis of the deposited data

Results flagged for a closer look

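For the 52 genes whose values are given per library or as ranges, each group of 5 was examined for a library set apart from the other 4 by more than Dixon's 95% critical value. This held in 7 of 104 groups, against 5.2 expected at 1 in 20. Per1 library 12 was the far library in 3 of them, with Per1 at 19.39 (the others from 19.59 to 19.64), Gap43 at 12.96 (others 12.83 to 12.87) and Itga4 at 13.87 (others 14.01 to 14.06). Per1 library 14 was low for Egr2, at 9.31 (others 9.35 to 9.36), and for Egr1, at 12.75 (others 12.83 to 12.84). Among Gfp libraries, Smad7 was low in library 15, at 11.31 (others 11.50 to 11.57), and Tcap in library 13, at 11.55 (others 11.70 to 11.74). In all 7 cases the far library still lay on its own group's side of the other group.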

How the results depend on the processing

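Acta2 and Cdkn1a, neither past the adjusted p, changed sign and passed it after quantile normalization (0.067 and 0.069). No named gene past the adjusted p changed sign under any alternative. Under leave-one-out, genes called higher numbered 88 to 104 and genes called lower 46 to 57, and the adjusted p alone was passed by 3741 to 4060 genes that rose and 3736 to 4193 that fell. Median centring left 83 called higher, all 83 among the original 91, and 60 lower, with 3080 and 5912 past the adjusted p. Same-numbered Per1 and Gfp libraries had correlations of their deviations of 0.204, 0.031, −0.032 and 0.052. The highest with a Gfp library of another number was larger each time (0.229, 0.136, 0.31 and 0.144). No pairing by number was thus seen in these values, and whether cultures shared a plate or handling was not tested. With the replicate block over the 8 libraries numbered 11, 13, 14 and 15, 99 genes were called higher and 50 lower, against 98 and 50 without the block in the same libraries, an alternative chosen after seeing the data. Of 85 named genes called, 69 kept their call under every alternative and 16 did not. Mki67 missed the adjusted p under most alternatives, with no filter (0.0981), after quantile normalization (0.0744), with no trend (0.066), with the replicate block (0.0612), without it in the same libraries (0.145) and without each of 8 single libraries (0.0585 to 0.106), and Myh8, Actb, Jun, Egfr, Myf6 and Hoxb4 missed it under at least 1 alternative, as did Pgam2 after quantile normalization (0.0737). Of genes not past the adjusted p, Nfe2l2, Bdnf, Egf, Pdgfra, Slc25a4, Slc25a5, Myh9 and Ckm passed it with the same sign under at least 1 alternative. Of the medians of the 48 lists, 62 values moved by more than the spread between libraries, and after median centring those of the Hox, unfolded protein, oxidative phosphorylation, fatty acid oxidation, ribosomal, histone and ABC transporter lists, all close to 0, changed sign. The depth of the libraries, which would set the precision of low values, is unknown. Differences are shrunken most for those genes, so a small rlog difference there is not a small fold change in reads.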
